A study of Mus musculus with 6 samples.

Results

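The mitochondrial solute carriers of the SLC25 family were examined in the livers of mice of 2 genotypes, Mig-6 d/d and Mig-6 f/f. A gene was counted as a member when a probe set carried 1 annotated symbol that starts with Slc25a, or the symbol Ucp1 or Ucp3. This gave 46 of the 18193 genes on the array and 96 of its 34945 probe sets with 1 gene symbol. Slc25a21, Slc25a43 and Ucp2 were not analysed here. The samples were 3 livers labelled Mig-6 d/d and 3 labelled Mig-6 f/f, each on 1 Affymetrix mouse expression array. All came from male mice of mixed background aged 8 weeks, kept on chow with 12 h of light and 12 h of darkness and fasted for 24 h. The gene of Mig-6 is Errfi1, and its product binds and restrains receptors for epidermal growth factor. The labels give no promoter for a recombinase, no deleted part of the gene and no word on whether the RNA of each array came from its own mouse, so the p-values reflect only how far these samples spread, which may be technical.

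Most carriers of this family sit in the inner membrane of mitochondria, and many exchange one small molecule for another, such as ADP for ATP, citrate for malate or aspartate for glutamate. They share a fold of repeated membrane-spanning helices. In liver they connect enzymes of the matrix with those of the cytosol, and urea synthesis, the malate-aspartate shuttle, fatty acid oxidation and the export of citrate for lipid synthesis each depend on one or more of them. A few members, the uncoupling proteins, are known for letting protons back across the membrane.

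Differences are given as d/d minus f/f on the scale log2(intensity + 16) after quantile normalization, with the standard error of limma and 3 arrays per group, and for dim genes this scale compresses the change. A gene passed when its p, adjusted by Benjamini-Hochberg over all 13718 genes tested, was under 0.05. Median deposited intensities were 55.6 to 65.4, and precision is limited by how few arrays there are. Errfi1 read 68.0, 61.8 and 59.6 in the d/d livers, against 5371, 5424 and 5686 in the f/f livers, a log2 difference of -6.10 ± 0.10 (limma, adjusted p = 5.07e-08). One array stood apart: in f/f replicate 3 the control probe sets for 18S ribosomal RNA averaged 3807, against 218 to 455 in the other 5 arrays, and its mean correlation with the others was 0.963, against 0.978 to 0.981. Without it 10 of 42 members tested changed sign, and the values without it are given below for the carriers described in every array that it moved across 0. Control probe sets at the 3′ end of Actb exceeded those at the 5′ end by 1.24 to 1.32 log2 units in d/d arrays and by 1.18 to 1.38 in f/f arrays. The 7 hepatocyte markers tested summed to 128815 to 131606 in d/d arrays and to 129677 to 133821 in f/f arrays. Alb, serum albumin, read 34684 to 35799.7 in d/d arrays and 33743 to 34157 in f/f arrays, and its groups overlapped after normalization. Of the 7, 4 lay lower in d/d, and groups were apart with d/d lower for 2 and with d/d higher for 2. Tat had the 1 unadjusted p under 0.05 among them, with a log2 difference of -0.38 ± 0.15 (limma, adjusted p = 0.586). Of the 8 Kupffer cell markers 7 lay lower in d/d, with sums of 1949 to 2524 in d/d arrays and of 2197 to 3232 in f/f arrays, and 0 passed or had an unadjusted p under 0.05 (limma), where 53.6% of all genes lay lower. Of the 6 stellate cell markers tested 3 lay lower in d/d, with sums of 2052 to 2507 in d/d arrays and of 2599 to 2908 in f/f arrays. Among these Dcn had the 1 unadjusted p under 0.05, at -0.29 ± 0.12 (limma, adjusted p = 0.594). It read 1466 to 1787.5 in d/d arrays and 1980 to 2164 in f/f arrays. The part of these cell types in the results below was not tested. In bulk liver, fewer cells of a type and less RNA per cell cannot be told apart.

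Slc25a25 fell in the d/d livers. It encodes a calcium-regulated carrier that exchanges ATP-magnesium for phosphate and so sets the pool of adenine nucleotides in the matrix. Its most intense probe set, 1424735_at, read 250.45, 207.8 and 269.7 in the d/d livers, against 691, 696 and 793 in the f/f livers. The lowest f/f array was far above the highest d/d array, and neither group spread by more than a small part of the gap between them. The log2 difference was -1.52 ± 0.13 with a 95% interval of -1.81 to -1.23, or 2.87 times lower on this scale (limma, adjusted p = 0.00467). It was -1.47 without f/f replicate 3 (limma, adjusted p = 0.00296). Without d/d replicate 1 the difference was -1.55 and did not pass (limma, adjusted p = 0.0538). The mean of its probe sets gave -0.78 and did not pass either (limma, adjusted p = 0.0523).

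The other probe sets of Slc25a25 showed smaller differences. The probe set 1447856_x_at read 71.9, 68.4 and 67.4 in the d/d livers, against 106, 118 and 119 in the f/f livers, a log2 difference of -0.59 ± 0.10. Its groups were apart, though it did not pass among all 34945 probe sets (limma, adjusted p = 0.115), where 1424735_at did (adjusted p = 0.00205). Without f/f replicate 3 it passed (limma, adjusted p = 0.0423). The probe set 1454284_at read 170.4, 163 and 102 in the d/d livers, against 145, 133 and 244 in the f/f livers. Here the groups overlapped, d/d replicate 3 was the lowest and f/f replicate 3 the highest array, and the log2 difference was -0.21 ± 0.22. On the log2 scale the difference of 1424735_at minus that of 1447856_x_at was -0.93, and minus that of 1454284_at it was -1.31. These gaps are a description: a two-sided exact permutation test over the 20 assignments gave p = 0.1 for both, the smallest this design allows. The probe set 1447856_x_at lies closer to the dim filter of 48.4, where the scale compresses a change. The gap to it was -0.89 with a pseudocount (the constant added to each intensity) of 1. With a pseudocount of 64 the gap to 1447856_x_at was -0.96. Whether its low intensity has a part in the gap in another way was not tested. Which transcripts the probe sets read was not examined here.

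**Figure D1:**
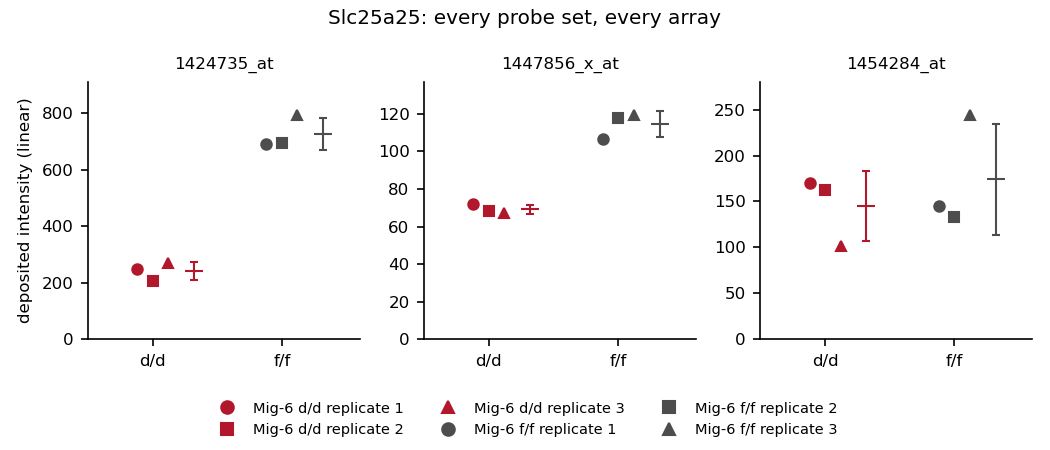
Deposited linear intensity of the 3 probe sets of Slc25a25 in every array, Mig-6 d/d left and Mig-6 f/f right in each panel, with 1 marker per array and the group mean ± SD beside them. The groups are apart for 1424735_at (208 to 270 in d/d, 691 to 793 in f/f) and 1447856_x_at, and overlap for 1454284_at.

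The annotation gives Slc25a25 several start sites on chromosome 2, and 3 promoter windows of 300 bases were read for it from RefSeq (mouse build GRCm38.p6, 250 bases before to 50 after the start). One of them holds the full cyclic AMP response element TGACGTCA, the site bound by CREB, a transcription factor that glucagon signalling activates in the fasted liver. The 250 bases before that start, chr2:32424067-32424316 on the minus strand, are shown because this is the member that fell, with the element in capitals.
Slc25a25 upstream window: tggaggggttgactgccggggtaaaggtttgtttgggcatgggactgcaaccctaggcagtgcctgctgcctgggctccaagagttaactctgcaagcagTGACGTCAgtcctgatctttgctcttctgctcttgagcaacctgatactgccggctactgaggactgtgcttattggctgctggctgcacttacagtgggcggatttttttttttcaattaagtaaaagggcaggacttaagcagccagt
The element begins 150 bases before the start. The same letters, searched on both strands, occur in 588 of 32851 promoter windows of this length (1.79%), and among the 45 windows found for 36 members they occur in 1 window each of Slc25a25 and Slc25a36. The other motifs searched were CACGTG (an E-box), TGANTCA (AP-1) and TGTTTAC (FOXO), which occur in 7.15%, 7.81% and 3.65% of all windows. Of the 45 windows of members, 8, 2 and 0 hold them, and these windows belong to 7, 2 and 0 members. None of these 3 occurs in the window shown, so none overlaps the element there. These matches describe letters and say nothing on binding. Slc25a36, the other member with the element, had a log2 difference of 0.090 ± 0.12.

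Of the 46 members, 42 were intense enough to be tested. Slc25a25 was the 1 member that fell, 0 rose, and 41 did not pass. The family was listed with Slc25a25, which earlier results of these data had already called. This 1 call was therefore known beforehand and is no result about the family. Slc25a25 is also among the lower members counted below. Over all genes tested 0.051% passed as lower and 0.0437% as higher. At an unadjusted p under 0.05, 6 members lay lower and 3 higher, against 3.08% and 4.77% of all genes. In 9 members every d/d array lay below every f/f array, and in 2 every d/d array lay above, against 6.82% and 7.86% of all genes. Differences were below 0 for 25 members and above 0 for 17, and 53.6% of all genes lay below 0. The median over the members tested was -0.058, against -0.015 over all genes, and the median size was 0.12, against 0.11. The median was -0.010 without f/f replicate 3. Without that array 3 of 43 members passed, Slc25a25 and Slc25a47 as lower and Slc25a14 as higher, against 0.664% of all genes in either direction. Without d/d replicate 1 the count was 0, since Slc25a25 then missed the threshold. Among the 96 probe sets of the family 1 passed, as lower, where 0.0286% of all probe sets did. It was 1424735_at of Slc25a25.

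**Figure D2:**
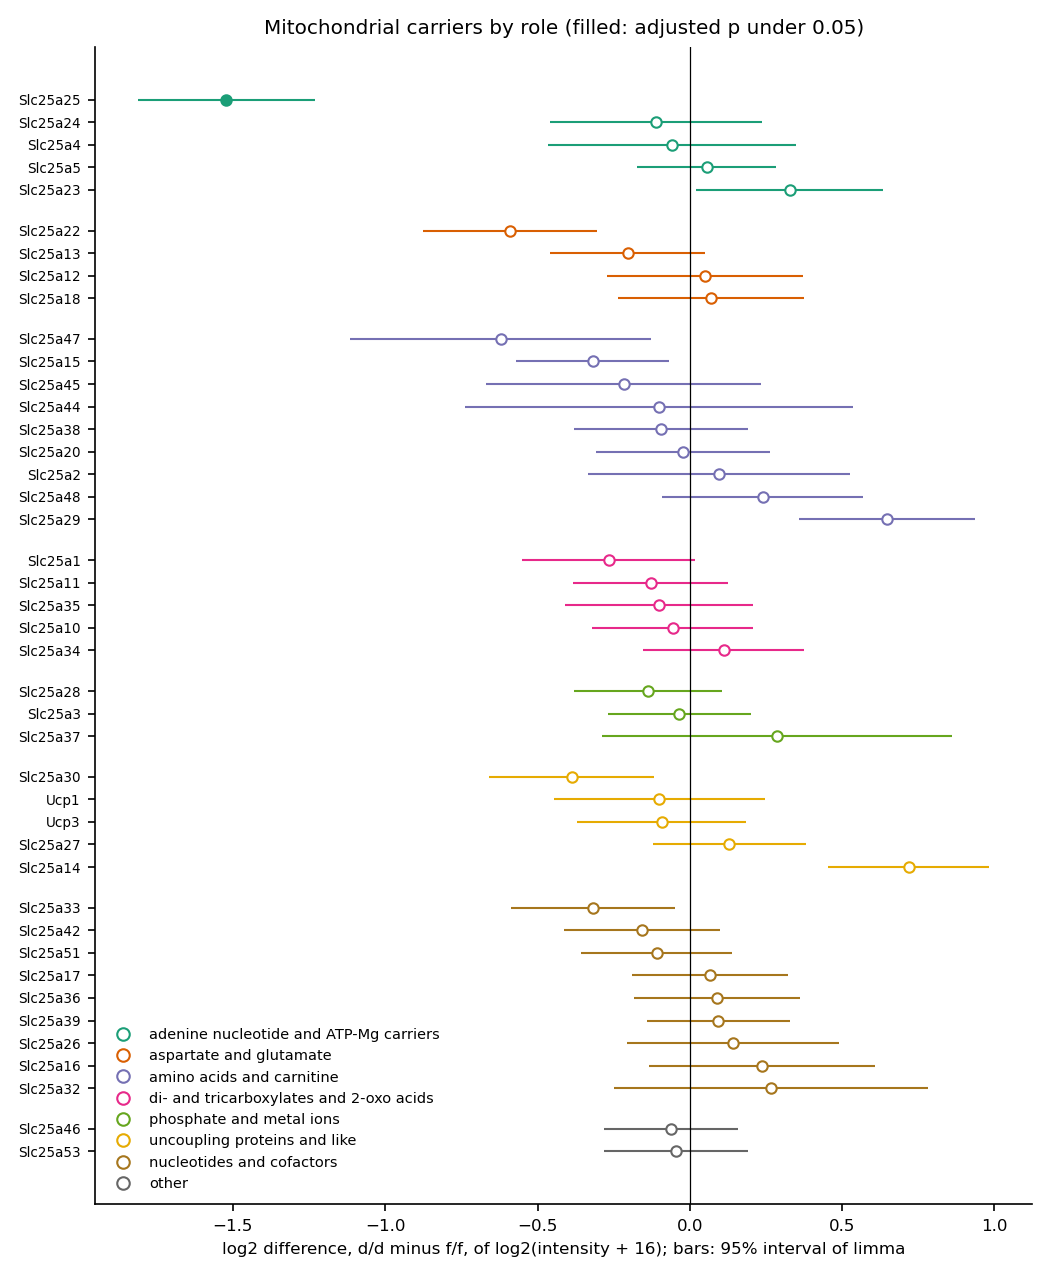
Log2 difference, d/d minus f/f, of the 42 members tested, with bars for the 95% interval of limma, grouped and coloured by what the carrier moves. The filled point is Slc25a25 (-1.52), the 1 member that passed, and the other 41 lie between -0.62 and 0.72.

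The adenine nucleotide and ATP-magnesium carriers count 7 members, of which 5 were tested, with a median of -0.058. Beside Slc25a25 none of the other 4 passed (limma), and 1, Slc25a23, had an unadjusted p under 0.05. Slc25a23, another calcium-regulated ATP-magnesium carrier, read 278, 325 and 299 in the d/d livers, against 216, 281 and 221 in the f/f livers. Its groups overlapped by 1 array, f/f replicate 2, and the log2 difference was 0.33 ± 0.13 (limma, adjusted p = 0.596). Slc25a24, the third of that kind, read 70.2, 61 and 55.3 in the d/d livers, against 64.3, 53.2 and 96 in the f/f livers. The highest value was that of f/f replicate 3, and the log2 difference was -0.11 with a 95% interval of -0.46 to 0.24. It was 0.030 without that array. Slc25a41, grouped here with the ATP-magnesium carriers, was under the dim filter, with 27.0 to 37.1 in d/d and 30.1 to 39 in f/f arrays. The ADP/ATP translocases exchange the cytosol's ADP for the matrix's ATP. Slc25a5, the form found in most tissues, read 5897, 6095 and 6279 in the d/d livers, against 6147, 5972 and 6064 in the f/f livers. Its groups overlapped throughout, and its log2 difference was 0.056 with a narrow interval of -0.17 to 0.28. Slc25a4, the form of heart and muscle, read 91.7, 73.6 and 90.6 in the d/d livers, against 103, 98 and 73.2 in the f/f livers, with a log2 difference of -0.058 and an interval of -0.46 to 0.35. These groups also overlapped, and leaving out 1 array moved the value between -0.24 and 0.051. Slc25a31, the translocase of the testis, lay under the dim filter at 8.74 to 16.7 in d/d and 14.5 to 21.1 in f/f arrays.

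Of the 4 aspartate and glutamate carriers, 2 lay below 0 and 2 above, and none of the 4 passed (limma), while 1 had an unadjusted p under 0.05. That one was Slc25a22, which carries glutamate with a proton into the matrix. It read 893, 740.1 and 710.3 in the d/d livers, against 1256, 1136 and 1173 in the f/f livers. Every d/d array lay below every f/f array, and the log2 difference was -0.59 ± 0.12 (limma, adjusted p = 0.184). Slc25a13, the aspartate-glutamate carrier of the liver known as citrin, read 1179, 1196 and 1116 in the d/d livers, against 1462, 1397 and 1211 in the f/f livers. The groups were apart with f/f replicate 3 just above the d/d arrays, and the log2 difference was -0.20 with an interval of -0.46 to 0.051. Slc25a12, its counterpart in muscle and brain, read 255, 294 and 284 in the d/d livers, against 280.4, 306 and 227 in the f/f livers. Its groups overlapped, with a log2 difference of 0.049 and an interval of -0.27 to 0.37. It was -0.087 without f/f replicate 3. The second glutamate carrier, Slc25a18, had 0.070 ± 0.13.

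The carriers of other amino acids and of carnitine count 9 members, all tested. None of the 9 passed (limma), 2 were lower and 1 higher at an unadjusted p under 0.05, and their differences ran from -0.62 to 0.65. Slc25a47, a carrier found mainly in liver, read 2649, 2868 and 2776 in the d/d livers, against 5236, 5208 and 2951 in the f/f livers. The first and second f/f arrays were close to each other and far above all d/d arrays, whereas f/f replicate 3 lay just above them. The log2 difference was -0.62 ± 0.22 (limma, adjusted p = 0.494), and without f/f replicate 3 it was -0.89 ± 0.097 and passed (limma, adjusted p = 0.00903). Slc25a15, which brings ornithine into the matrix for the urea cycle, read 2029, 2167 and 2228 in the d/d livers, against 2801, 2936 and 2484 in the f/f livers. Its groups were apart, and the log2 difference was -0.32 ± 0.11 (limma, adjusted p = 0.490). Slc25a29, a carrier of basic amino acids, read 705, 657 and 549 in the d/d livers, against 394, 386 and 416 in the f/f livers. Here every d/d array lay above every f/f array, and the log2 difference was 0.65 ± 0.13 (limma, adjusted p = 0.151). The mean of its 5 probe sets gave 0.19 (limma, adjusted p = 0.626).

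Slc25a20, the carnitine-acylcarnitine carrier that admits long-chain fatty acids to oxidation, overlapped between the groups. It read 1671, 1690.5 and 1419 in the d/d livers, against 1809, 1512 and 1594 in the f/f livers, and the log2 difference was -0.024 with an interval of -0.31 to 0.26. Slc25a38, which supplies glycine for haem synthesis, read 172, 171 and 153 in the d/d livers, against 163, 161 and 215 in the f/f livers. Its groups overlapped, the highest value was that of f/f replicate 3, and the log2 difference was -0.094 with an interval of -0.38 to 0.19. It was 0.011 without that array. The remaining 4 members of this role, Slc25a2, Slc25a44, Slc25a45 and Slc25a48, had differences of -0.22 to 0.24. Without f/f replicate 3 Slc25a44 had 0.21 and Slc25a45 0.021, against -0.10 and -0.22 with all arrays.

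The carriers of di- and tricarboxylates and of 2-oxo acids lay close together, between -0.27 and 0.11, with 4 of 5 below 0 and none of the 5 past the test (limma, 0 at an unadjusted p under 0.05). Slc25a1, the citrate carrier that exports acetyl units for fatty acid and sterol synthesis, read 588, 571 and 612 in the d/d livers, against 716, 818 and 623 in the f/f livers. The groups were apart by a small margin at f/f replicate 3, and the log2 difference was -0.27 with an interval of -0.55 to 0.017. It was -0.36 without that array (limma, adjusted p = 0.214). Slc25a10, the dicarboxylate carrier, read 1130.2, 1145 and 1097 in the d/d livers, against 1331, 1095 and 1131 in the f/f livers. Only f/f replicate 1 lay above the d/d arrays, and the log2 difference was -0.057 with an interval of -0.32 to 0.21. Slc25a11, the oxoglutarate-malate carrier of the malate-aspartate shuttle, read 532, 512 and 604 in the d/d livers, against 569.6, 589 and 644 in the f/f livers. Its groups overlapped at d/d replicate 3, and the log2 difference was -0.13 with an interval of -0.38 to 0.13.

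The phosphate and iron carriers did not pass, 3 of 3 (limma, 0 at an unadjusted p under 0.05). Slc25a3, which supplies the phosphate for ATP synthesis, read 4039, 3879.7 and 4107 in the d/d livers, against 4327, 4254 and 4048 in the f/f livers. The groups overlapped, and the log2 difference was -0.034 with an interval of -0.27 to 0.20. Slc25a37, mitoferrin of red cell precursors, read 209, 195 and 239.7 in the d/d livers, against 177, 253 and 120.1 in the f/f livers. Within the f/f group its values differed by more than the group means did, so that the log2 difference of 0.29 had an interval of -0.29 to 0.86. It was -0.0015 without f/f replicate 3. The 3 erythroid markers tested summed to 838 to 1014 in d/d arrays and to 859 to 998 in f/f arrays. Slc25a28, the mitoferrin of other tissues, had -0.14 ± 0.11.

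Among the uncoupling proteins and the carriers like them, none of 5 passed (limma), while Slc25a14 and Slc25a30 had an unadjusted p under 0.05 and lay on opposite sides of 0. Slc25a14, also called brain mitochondrial carrier protein, read 204, 212 and 170.5 in the d/d livers, against 116, 109 and 116 in the f/f livers. Every d/d array lay above every f/f array and the f/f arrays were close to each other. The log2 difference was 0.72 ± 0.12 (limma, adjusted p = 0.103), and it passed at 0.69 ± 0.11 without f/f replicate 3 (limma, adjusted p = 0.0453). Slc25a30, its kidney relative, read 151, 146 and 147.5 in the d/d livers, against 215, 170.2 and 221 in the f/f livers. The d/d arrays were close to each other and below all f/f arrays, and the log2 difference was -0.39 ± 0.12 (limma, adjusted p = 0.389). Ucp1, the uncoupling protein of brown fat, read 52.2, 64.7 and 54.8 in the d/d livers, against 49.4, 56.9 and 89.8 in the f/f livers, close to the intensity of 48.4 below which probe sets were left out. Ucp3, that of skeletal muscle, read 65.4, 60.8 and 53 in the d/d livers, against 53.8, 63.2 and 82.8 in the f/f livers. Both overlapped between the groups, both were highest in f/f replicate 3, and their log2 differences were -0.10 (interval -0.45 to 0.25) and -0.093 (interval -0.37 to 0.19). Without that array they were 0.049 for Ucp1 and -0.012 for Ucp3. Markers of skeletal muscle summed to 261 to 390.3 in d/d arrays and to 288 to 410.4 in f/f arrays, and of 3 adipocyte markers with a probe set 1, Cidec, was above the dim filter. Cidec, a lipid droplet protein, read 56.6, 65.3 and 60.5 in the d/d livers, against 79.7, 63.8 and 90.3 in the f/f livers, with a log2 difference of -0.26 ± 0.12 (limma, adjusted p = 0.648). These groups overlapped as deposited and were apart after normalization, and the part of this in the values of Ucp1 was not tested.

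The carriers of nucleotides and cofactors had 6 of 9 tested above 0 and a median of 0.090, and none of the 9 passed (limma), with 1 lower and 0 higher at an unadjusted p under 0.05. Slc25a33, a pyrimidine nucleotide carrier, read 245, 228 and 201 in the d/d livers, against 260.02, 289.6 and 307 in the f/f livers. Its groups were apart, and the log2 difference was -0.32 ± 0.12 (limma, adjusted p = 0.535). Slc25a42, the coenzyme A carrier, read 211, 179.9 and 178.9 in the d/d livers, against 219.6, 201 and 224 in the f/f livers. The groups overlapped at d/d replicate 1, and the log2 difference was -0.16 with an interval of -0.41 to 0.099. Slc25a39, needed for glutathione uptake into mitochondria, read 5754, 5811 and 5468 in the d/d livers, against 5601, 5615 and 5203 in the f/f livers. Its groups overlapped as well, and the log2 difference was 0.093 with an interval of -0.14 to 0.33. The other 6 tested, Slc25a16, Slc25a17, Slc25a26, Slc25a32, Slc25a36 and Slc25a51, had differences of -0.11 to 0.27. Without f/f replicate 3 the value of Slc25a32 was -0.012, against 0.27 with all arrays, and that of Slc25a26 was -0.0025, against 0.14. Slc25a40, the paralog of Slc25a39, was under the dim filter at 44.1 to 55.2 in d/d and 40.9 to 53.4 in f/f arrays. Of the last 3 members, the outer membrane protein Slc25a46 had -0.062 ± 0.096 and Slc25a53 -0.045 ± 0.10, while Slc25a54 was under the filter at 25.1 to 30.4 in d/d and 20.8 to 30.6 in f/f arrays.

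**Figure D3:**
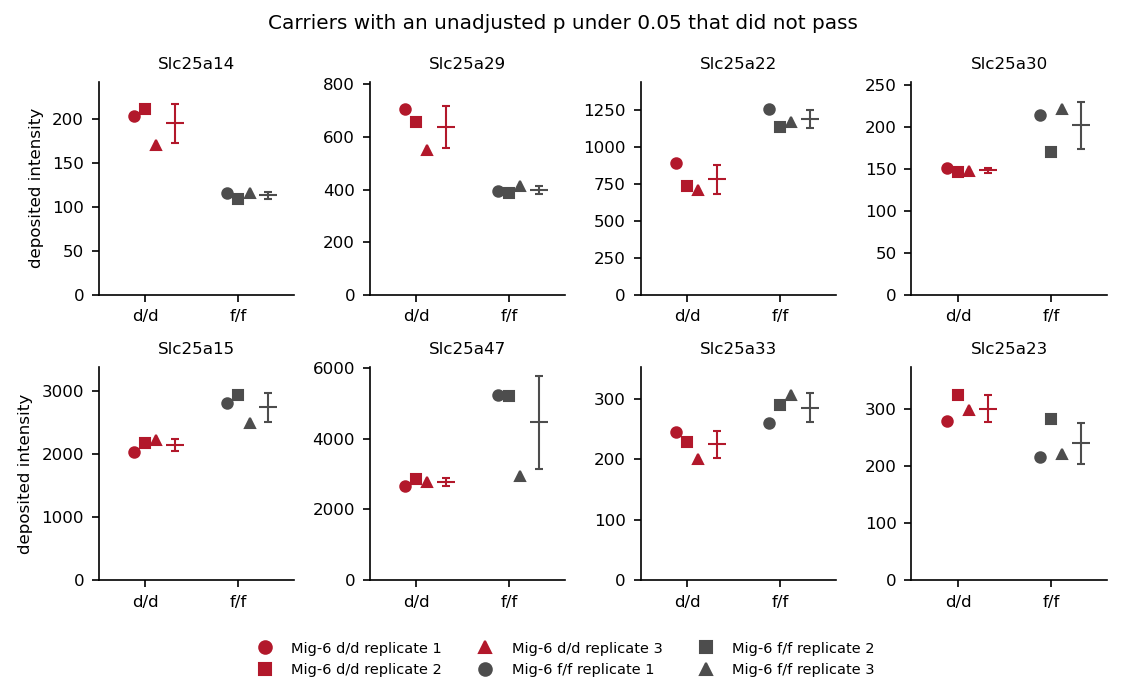
Deposited linear intensity of the 8 carriers that had an unadjusted p under 0.05 and did not pass, Mig-6 d/d left and Mig-6 f/f right in each panel, with 1 marker per array and the group mean ± SD beside them. The groups are apart in all of them but Slc25a23, and Slc25a47 is split within the f/f group at 2951 in replicate 3 and 5208 or more in the others.

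Several members are read by more than 1 probe set, which gave a check within a gene. Of the 46 members 24 had several probe sets and 22 had 1. For Slc25a30, 4 of 5 probe sets lay lower in d/d with groups apart, from -0.59 to -0.39, and the fifth was under the dim filter at 0.058. Both probe sets of Slc25a15 lay lower with groups apart, at -0.54 and -0.32. Slc25a29 divided: 1438187_at and 1438188_x_at lay higher with groups apart at 0.65 and 0.67, and the remaining 3 ran from -0.19 to 0.0043, of which 1423980_at (-0.19) lay lower with groups apart. The second of that pair read 637, 627 and 489.5 in the d/d livers, against 359, 336 and 380.2 in the f/f livers. The 8 probe sets of Slc25a5 ran from -0.11 to 0.32 and all overlapped between the groups. Those of Slc25a39 ran from -0.34 to 0.093, with 1440118_at lower and groups apart. For Slc25a12, 1436440_at lay lower with groups apart at -0.26, against 0.049 for the probe set used. For Slc25a17, 1450353_at lay higher with groups apart at 0.45, against 0.066 for the one used. In all, 12 probe sets of the family lay lower and 6 higher at an unadjusted p under 0.05, against 2.82% and 4% of all probe sets. Groups were apart with d/d lower for 17 and with d/d higher for 4, against 6.28% and 6.76% of all probe sets. The 12 and the 17 lower ones each include 2 of Slc25a25, whose call was known beforehand, and 4 of Slc25a30. Probe sets of 1 gene can share sequence and are not independent. Slc25a14, Slc25a22 and Slc25a47 each rest on 1 probe set.

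**Figure D4:**
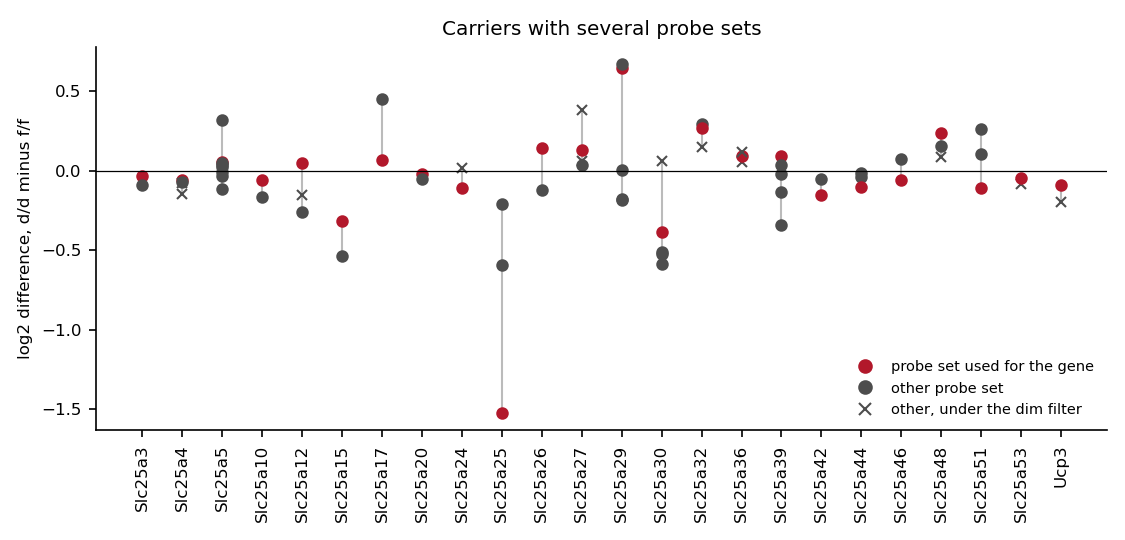
Log2 difference, d/d minus f/f, of every probe set of the 24 members with several, with the probe set used for the gene in red and those under the dim filter as crosses. Probe sets of Slc25a25 (-1.52 to -0.21) and Slc25a30 lie below 0 but for 1 dim one, and those of Slc25a29 divide.

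Leaving out f/f replicate 3, the array that stood apart, moved some carriers and not others. That array was the highest or the lowest of the 6 on 52 of the 96 probe sets of the family (54.2%), against 57.4% of all probe sets, and the other arrays were so on 24.0% to 35.4% of the family's. The difference of Slc25a47 went to -0.89 without it, that of Slc25a4 to -0.24 and that of Slc25a37 to -0.0015, whereas Slc25a22 (-0.60), Slc25a30 (-0.35) and Slc25a29 (0.67) stayed near their values with all arrays. With array weights, which gave this array 0.178 and the others 0.963 to 1.84, 5 of 42 members passed, against 1.56% of all genes. These were Slc25a25 (-1.48), Slc25a47 (-0.86), Slc25a22 (-0.56), Slc25a14 (0.71) and Slc25a29 (0.71), with adjusted p of 0.00028, 0.00943, 0.0480, 0.00943 and 0.0160 in limma. Among the family's 96 probe sets 4 passed without this array and 7 with the weights, against 0.392% and 0.598% of all probe sets. The 5 members include Slc25a25, whose call was known beforehand, and the 4 and the 7 each include probe sets of it. The 7 also include probe sets of Slc25a29, and those of the same gene are not independent. Why the array stands apart was not tested.

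**Figure D5:**
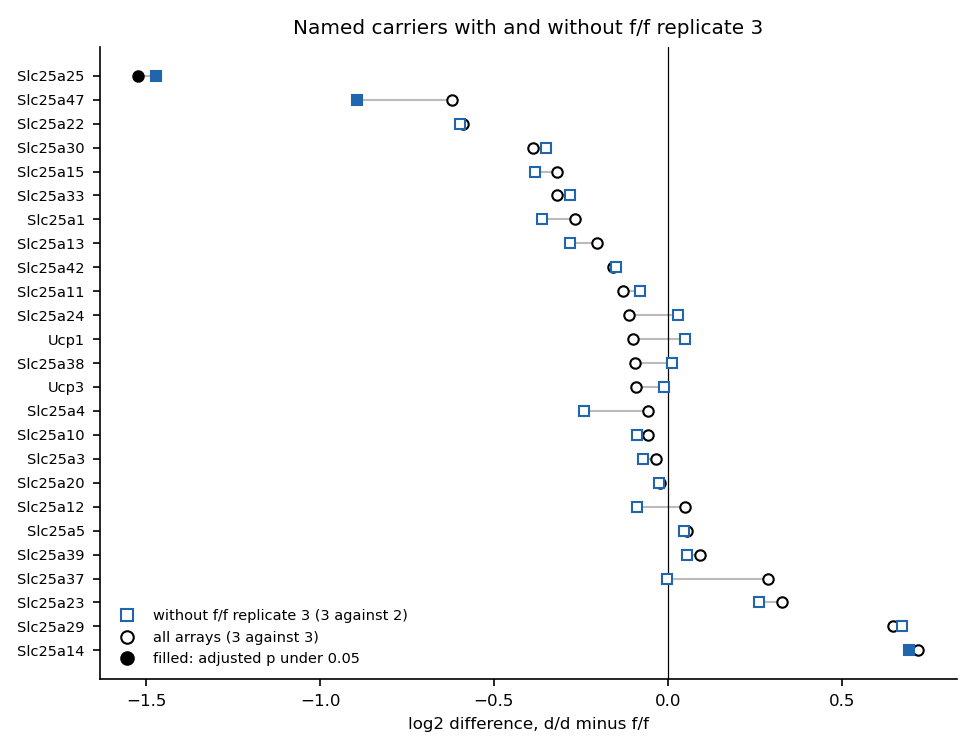
Log2 difference, d/d minus f/f, of the 25 named carriers without Mig-6 f/f replicate 3 (squares) and with all arrays (circles), with filled symbols for an adjusted p under 0.05. Slc25a47 moves to -0.89 and is filled together with Slc25a25 and Slc25a14 when that array is left out.

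Enzymes that work on either side of the carriers were read from a list of 27 genes, of which 25 were tested and 0 passed (limma), while 5 lay lower and 0 higher at an unadjusted p under 0.05, against 3.08% and 4.77% of all genes. The median was -0.059. Got1, the cytosolic aspartate aminotransferase of the malate-aspartate shuttle, read 2686, 3321 and 2599.65 in the d/d livers, against 5033, 6330.5 and 6837 in the f/f livers. Its groups were far apart, and the log2 difference was -1.03 ± 0.14 (limma, adjusted p = 0.0700). Asl, the argininosuccinate lyase of the urea cycle, read 4019.5, 4212 and 4012 in the d/d livers, against 6042, 6019 and 6267 in the f/f livers. Every d/d array again lay below every f/f array, and the log2 difference was -0.54 ± 0.097 (limma, adjusted p = 0.122). The other 3 handle acyl groups and carnitine: Cpt2 had -0.45 ± 0.13, Crat -0.42 ± 0.13 and Cpt1a -0.34 ± 0.11 (limma, adjusted p = 0.358, 0.428 and 0.414). Of 8 genes known to respond to fasting, Fgf21 and others that mostly encode mitochondrial enzymes, 6 were tested and 0 passed (limma). Fgf21, a hormone of the fasted liver, had the 1 unadjusted p under 0.05 among them, with 71.6, 53.1 and 46 in the d/d livers, against 82.4, 61 and 92.05 in the f/f livers. Its groups overlapped, and the log2 difference was -0.36 ± 0.16 (limma, adjusted p = 0.636).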

How the data were processed

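The values are the authors' deposited intensities, 1 per probe set and array on a linear scale; their summary and scaling are not given in the sources used here. Of 45101 probe sets, 34945 carry 1 gene symbol, 932 several, 9160 none and 64 are controls, by the platform annotation, and 34741 of the 34945 matched the reference table of GRCm38.p6, with 0 symbols updated. One probe set that names Slc25a37 beside another gene was left out.

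From the intensities, log2(intensity + 16) was quantile normalized without the control probe sets. The probe set with the highest mean stood for a gene, the lowest 40% of probe sets by mean were left out (log2 6.01, intensity 48.4), and 13718 genes were fitted with limma 3.58.1 (R 4.3.3) without a block. A second fit took all 34945 probe sets. The gene fit was tested on simulated data, in 5 sets of 13718 genes. At an adjusted p under 0.05 it called 73.6% of genes changed 2-fold and 32.4% of those changed 1.5-fold. A mean of 7 unchanged genes per set were called as well. Values were drawn independently for each array, so no simulated array stood apart as f/f replicate 3 does. The probe set fit was not simulated. Groups were called apart on normalized values. Members, roles and lists were chosen with earlier results of these data known. Values in every array are given for members past the threshold or at an unadjusted p under 0.05, for all probe sets of Slc25a25 and for 22 key liver members, of which Ucp2 was not analysed here. Alternatives covered scaling, pseudocount, dim filter, probe set per gene, variance model, array weights, block and each array left out. Promoter sequences are from RefSeq.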

Additional observations from a re-analysis of the deposited data

How the results depend on the processing

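The fall of Slc25a25 kept its direction under all 18 alternatives and lost its call under 3 of them: the mean of all its probe sets (-0.78, limma, adjusted p = 0.0523), the replicate number as a block (-1.52, adjusted p = 0.0537) and the fit without d/d replicate 1 (-1.55, adjusted p = 0.0538). The cause was not tested. The range with 1 array left out was -1.59 to -1.42, and its adjusted p lay between 0.00028 and 0.0538 across alternatives. With the block and the control probe sets in the normalization, a choice made after seeing the data, it passed (adjusted p = 0.0491). Deviations of same-numbered arrays from their group means correlated at -0.0032, -0.14 and -0.47, and 0 of 6 arrays correlated best with its own number. With 3 arrays a group these correlations depend on each other, so they cannot exclude a source shared by number. The members that passed were 1 in most settings, 0 with the mean of probe sets and with the replicate block, 5 with array weights, and 0 to 3 with 1 array left out. The member median of -0.058 was 0.0022 with array weights and -0.070 to -0.010 with 1 array left out. The family's probe sets past the threshold were 7 with array weights and 1 to 4 with 1 array left out. All genes past the threshold were 13, and 20 with the mean of probe sets, 23 with trend and robust variance, 214 with array weights, 1 with the replicate block, 6 with the block and control probe sets together, and 4 to 91 with 1 array left out.

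Of 24 other named members 14 kept 1 direction throughout. With array weights the sign turned for Slc25a12 (-0.080), Slc25a20 (0.0081), Slc25a24 (0.034), Slc25a38 (0.0099) and Ucp1 (0.0070), and with the mean of probe sets for Slc25a12 (-0.12) and Slc25a39 (-0.074). With 1 array left out the ranges that cross 0 were -0.070 to 0.00079 for Slc25a3, -0.24 to 0.051 for Slc25a4, -0.12 to 0.035 for Slc25a10, -0.087 to 0.14 for Slc25a12, -0.093 to 0.061 for Slc25a20, -0.24 to 0.030 for Slc25a24, -0.0015 to 0.55 for Slc25a37, -0.15 to 0.011 for Slc25a38 and -0.21 to 0.049 for Ucp1. None of these members passed in any setting. With 3 arrays a group, the median standard error over members was 0.12, so small differences could not be resolved.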

Other observations

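Other transport of the mitochondrial membranes was read from a list of 26 genes (pyruvate and calcium carriers, sideroflexins, porins and the protein import machinery), of which 23 were tested, 0 passed (limma) and the median log2 difference was -0.023. Sfxn1, the serine carrier of the inner membrane, was the 1 member at an unadjusted p under 0.05. It read 1729, 1949.9 and 1851 in the d/d livers, against 1543, 1528 and 1434 in the f/f livers, with every d/d array above every f/f array and a log2 difference of 0.30 ± 0.099 (limma, adjusted p = 0.438). Sfxn5, a relative, had its groups apart in the same direction at 0.19 ± 0.11, and Timm17a, a part of the inner membrane import channel, had them apart the other way at -0.19 ± 0.096. Mpc1, of the pyruvate carrier, had -0.13 ± 0.11, and the porins Vdac1, Vdac2 and Vdac3 lay between -0.012 and 0.026. Regulators of mitochondrial number and of fat oxidation, 16 genes and all tested, had 0 members past the test (limma) and 0 at an unadjusted p under 0.05, with a median of 0.016. Among them Ppara, the nuclear receptor of the fasted liver, had 0.30 ± 0.14, and Ppargc1a, a coactivator of mitochondrial genes, had -0.25 ± 0.16. The 3 genes Sfxn5, Timm17a and Mpc1, the porins, Ppara and Ppargc1a were picked after their values were seen.

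Slc25a44, a carrier of branched-chain amino acids, differed among its own probe sets. The most intense one, 1456465_at, read 410.2, 631 and 416 in the d/d livers, against 455, 371 and 806 in the f/f livers. It was highest in d/d replicate 2 and f/f replicate 3, which are also the arrays with the highest 18S ribosomal RNA control of their groups, at 455 and 3807. The other arrays did not keep this order: the control was at 244 and 339 in f/f replicates 1 and 2. In d/d replicates 1 and 3 it was at 254 and 218. The other probe sets of the gene, 1433448_at and 1436909_at, had log2 differences of -0.041 and -0.015. Neither was highest of its group in d/d replicate 2 or in f/f replicate 3. Whether ribosomal RNA has a part in the values of 1456465_at was not tested. Slc25a45 read 234, 278 and 249 in the d/d livers, against 248.5, 246 and 423 in the f/f livers, so that f/f replicate 3 stood alone, and the log2 difference was 0.021 without that array, against -0.22 with it. That of Slc25a44 was 0.21 without it, against -0.10. Both carriers were picked after their values were seen.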
